A study of Caenorhabditis elegans with 6 samples.

Results

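The *abu* and *pqn* genes of *Caenorhabditis elegans* were compared between *folr-1(syb4116)* mutants and the wild-type strain N2. The members are all genes of the count table whose WBcel235 symbol begins with *abu-* or *pqn-* followed by a number, which gave 70 of the 46661 genes, 14 named *abu* and 56 named *pqn*. Of these, 63 passed edgeR's filter on low counts (12 *abu* and 51 *pqn* genes), among 15432 genes tested. The tested animals carried *folr-1(syb4116)*, an allele made by CRISPR/Cas9 editing that places an early stop codon in *folr-1*, a gene on chromosome X related to folate receptors, and the comparison animals were N2. No other allele is given for either strain. Animals of both strains were raised from bleach-synchronised L1 larvae on HT115 bacteria carrying the empty RNAi vector at 20 °C and were collected whole as L4 larvae. There were 3 biological replicates, and so 3 libraries, of each strain. The mutant is a single edited line, so the edit and anything else that line carries cannot be told apart.

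The *C. elegans* pharynx, the muscular pump through which the worm feeds, is lined by a cuticle of its own. This lining contains chitin and cysteine-rich or disordered proteins, and it is shed and rebuilt at every moult, so that many of its genes are transcribed in pulses that follow the larval moulting cycle. The *abu* genes ("activated in blocked unfolded protein response") were named for their rise in worms that lack the canonical unfolded protein response of the endoplasmic reticulum under stress, and several of their secreted, cysteine-rich products lie in the pharyngeal cuticle. The *pqn* genes ("prion-like glutamine/asparagine-rich") were named only for the composition of their predicted proteins. Some are close relatives of the *abu* genes, whereas others encode proteins inside the cell with no known tie to the pharynx, such as *pqn-59*, a relative of the human stress granule protein UBAP2L, and *pqn-41*, which acts in the death of the male linker cell. The label of pharyngeal cuticle therefore fits the *abu* genes and only a share of the *pqn* genes, and RNA of whole animals does not show in which tissue a gene was read. In such samples fewer cells of a type and less RNA per cell cannot be told apart.

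The mutant libraries held 21646678 to 25946226 counts and the N2 libraries 21727829 to 24959263. Pairs of libraries from the same strain gave a chi-square of 3.28 to 8.6 per degree of freedom, more than counting error alone, and each library was kept as a replicate. The edited gene, *folr-1*, had 14, 11 and 7 counts in the mutant libraries and 32, 37 and 59 counts in the N2 libraries, a log2 fold change of -2.02 (adjusted p = 4.99e-04, edgeR), which goes with the labels. Below, CPM are counts relative to the library total after TMM scaling, FPKM are the deposited values per kilobase of gene, fold changes are of *folr-1(syb4116)* over N2, and adjusted p-values are those of the quasi-likelihood test in edgeR, adjusted by the Benjamini-Hochberg method over all 15432 tested genes.

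Most of the tested *abu* and *pqn* genes, 56 of 63, did not pass the test between the mutant and N2. Of the 63 tested genes, 5 were higher in *folr-1(syb4116)* and 2 were lower at an adjusted p under 0.05, that is 11.1% of them, whereas 6.95% of all tested genes passed. The higher genes were *abu-2*, *abu-12*, *abu-13*, *pqn-32* and *pqn-89*, which makes 7.94% of the members where the background for higher genes is 3.64%. The lower genes were *pqn-31* and *pqn-84*, 3.17% of the members where the background is 3.32%. The 63 genes had a median log2 fold change of 0.00849, beside 0.00277 over all tested genes, and 35 members lay within 0.1 of 0 on the log2 scale. These shares are a description of the list and were not tested. They include *abu-2*, which passed the filter on low counts only through the mutant libraries. With at least 10 counts required in every library, which leaves *abu-2* out, 4 members were higher, 2 of them *abu* genes. In that fit 533 of all 14563 tested genes were higher. The number of higher members was 3 without *folr-1(syb4116)* replicate 1, without *folr-1(syb4116)* replicate 2 or without N2 replicate 2, and 2 with limma on the log2 FPKM values. Over all tested genes 505 of 15580, 363 of 15603 and 335 of 15749 were higher in those 3 edgeR fits. With limma 310 of 15432 were higher on log2(FPKM + 1) and 309 on log2(FPKM + 0.1).

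**Figure D1:**
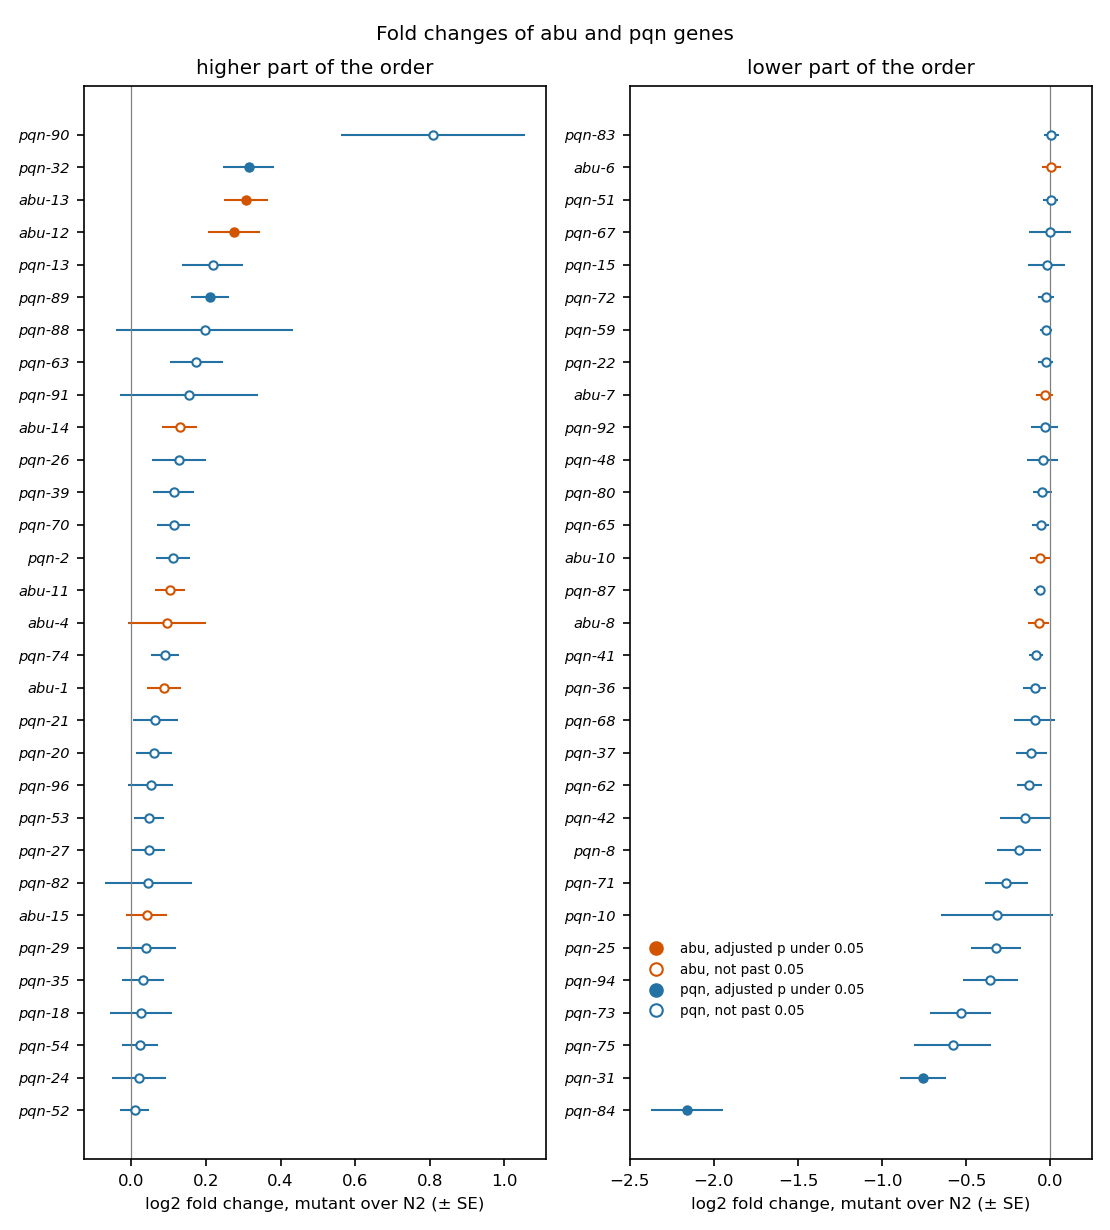
Log2 fold changes of *folr-1(syb4116)* over N2 (horizontal axis, edgeR) with standard errors for the tested *abu* (orange) and *pqn* (blue) genes, ordered by size and divided between 2 panels whose horizontal axes differ. Filled points have an adjusted p under 0.05, most genes lie within 0.1 of 0, and *abu-2* is left off because no N2 library had a count.

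By class, 3 of the 12 tested *abu* genes were higher and 0 were lower at an adjusted p under 0.05, where the background is 3.64% higher and 3.32% lower. At an unadjusted p under 0.05 in edgeR 5 were higher, where the background is 10.3%, and 0 were lower. Over both classes 19 members passed this looser limit, 13 higher and 6 lower, where the background for either direction is 20.2%. DESeq2 called the same 3 *abu* genes higher and limma on log2(FPKM + 1) called 2 of them. Of all 15432 tested genes, 475 were higher in DESeq2 and 310 in limma. Both called 0 *abu* genes lower. The counts of higher *abu* genes in this paragraph include *abu-2*, which passed the filter on low counts only through the mutant libraries. Its part in them, in any of the tools, is no separate support. Of the 51 tested *pqn* genes, 2 were higher and 2 were lower at an adjusted p under 0.05 in edgeR. This is 3.92% in each direction, near the background of 3.64% and 3.32%. Over the *abu* genes the median log2 fold change was 0.0916, also with *abu-2* at its bound given below, and over the *pqn* genes it was 0.0035, and 9 of the 12 *abu* genes and 27 of the 51 *pqn* genes lay above 0, as did 50.7% of all tested genes. Counts summed over the *abu* genes came to 1225, 1196 and 1180 CPM in the mutant libraries and 1169, 1098 and 1105 CPM in the N2 libraries. The mutant sums were above all N2 sums, by 0.0953 on the log2 scale, and the lowest mutant library exceeded the highest N2 library only narrowly. Counts summed over the *pqn* genes came to 3631, 3631 and 3548 CPM in the mutant libraries and 3633, 3552 and 3495 CPM in the N2 libraries, and these overlapped.

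The *abu* genes ranked among the well expressed genes of the L4 larva. Per gene length, the median over the tested *abu* genes was 57.7 FPKM, above the 13 FPKM of the *pqn* genes and the 11.8 FPKM of all tested genes. The most abundant was *abu-14* (ZK1067.7), a gene whose protein has been seen in the pharyngeal cuticle, with 268 ± 13.6 FPKM in the mutant and 245 ± 14.9 FPKM in N2 (SD, n = 3 each). It had 383, 404 and 365 CPM in the mutant libraries and 375, 340 and 338 CPM in the N2 libraries. The strains overlapped, since N2 replicate 1 exceeded mutant replicate 3, and the log2 fold change of 0.13 (SE 0.0469) did not pass the test (adjusted p = 0.116, edgeR). Without N2 replicate 1 it was 0.181 and passed, at an adjusted p of 0.0318 in edgeR, and with no filter on low counts it was 0.134 at an adjusted p of 0.0196.

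**Figure D2:**
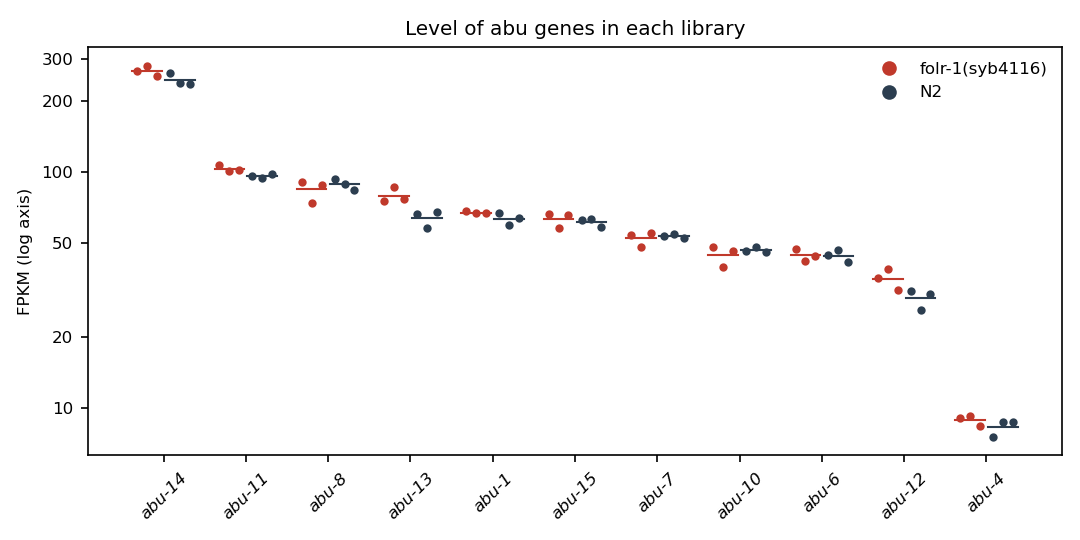
FPKM (vertical axis, log scale) of the 11 tested *abu* genes with counts in every library, in each *folr-1(syb4116)* (red) and N2 (dark) library, with horizontal lines at the strain means. The order runs from *abu-14*, with 268 FPKM in the mutant and 245 FPKM in N2, down to *abu-4*, with 8.91 FPKM in the mutant and 8.34 FPKM in N2.

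Among the other *abu* genes of high mean FPKM, *abu-13* passed the test and *abu-11*, *abu-8* and *abu-1* did not. The next after *abu-14* was *abu-11* (T01D1.6), known from work on lifespan extension by the deacetylase SIR-2.1, with 136, 128 and 131 CPM in the mutant libraries and 123, 119.9 and 125 CPM in the N2 libraries. All mutant libraries lay above all N2 libraries, as happened in the same direction for 12.3% of all tested genes, but the log2 fold change of 0.10 (SE 0.0397) did not pass the test (adjusted p = 0.147, edgeR). For *abu-8* (C03A7.14) the libraries gave 139, 113 and 135 CPM in the mutant and 142, 136 and 128 CPM in N2. These overlapped, with mutant replicate 2 the lowest, and its log2 fold change of -0.07 (SE 0.062) was the lowest of the *abu* genes. The founding member of the class, *abu-1* (AC3.3), had 96.4, 93.9 and 93.9 CPM in the mutant libraries and 94.2, 83.7 and 89.5 CPM in the N2 libraries, which overlapped, at a log2 fold change of 0.09 (SE 0.0457, adjusted p = 0.301, edgeR). By mean FPKM *abu-13*, with 79.2 ± 5.85 FPKM in the mutant and 64.1 ± 5.21 FPKM in N2 (SD, n = 3 each), fell between *abu-8* and *abu-1*.

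The genes *abu-13* and *abu-12* were higher by about the same small amount. The gene *abu-13* (F57B9.9) lies on chromosome III from 6941888 to 6945898 and had 92.3, 105 and 93.9 CPM in the mutant libraries, against 81.4, 71.2 and 82.9 CPM in the N2 libraries. The strains did not overlap, and mutant replicate 2 was the highest and N2 replicate 2 the lowest library. The log2 fold change was 0.31 (SE 0.0595, adjusted p = 0.00371, edgeR). With any single library removed it lay between 0.241 and 0.349, and the call held in each of the 15 alternative fits at the same threshold. It held only just in limma, with an adjusted p of 0.0492 on log2(FPKM + 1) and 0.0491 on log2(FPKM + 0.1). It did not meet the stricter threshold, which asks for an absolute log2 fold change over 1. Exons of *abu-13* overlap the uncharacterised gene F57B9.3 on the opposite strand by 19 bp, a gene with 3 to 27 counts per library, while *abu-13* had 1587 to 2542. The next tested gene, *let-711*, moved the other way, with a log2 fold change of -0.18 (adjusted p = 0.0108, edgeR).

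The other was *abu-12* (F52D1.3), on chromosome X from 450446 to 457610, with 97.8, 106 and 87.2 CPM in the mutant libraries and 85.9, 71.3 and 83.4 CPM in the N2 libraries. The strains did not overlap, but mutant replicate 3 and N2 replicate 1 were nearly level. The log2 fold change was 0.28 (SE 0.0692, adjusted p = 0.0221, edgeR). This call rested on single libraries, since the adjusted p in edgeR was 0.0697 without *folr-1(syb4116)* replicate 1, 0.114 without *folr-1(syb4116)* replicate 2 and 0.111 without N2 replicate 2, at log2 fold changes of 0.271, 0.206 and 0.198. None of the 4 tested genes nearest to *abu-12* (*dve-1*, F52D1.2, *aagr-4* and F38G1.3) passed the test, with log2 fold changes from -0.0353 to 0.159.

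**Figure D3:**
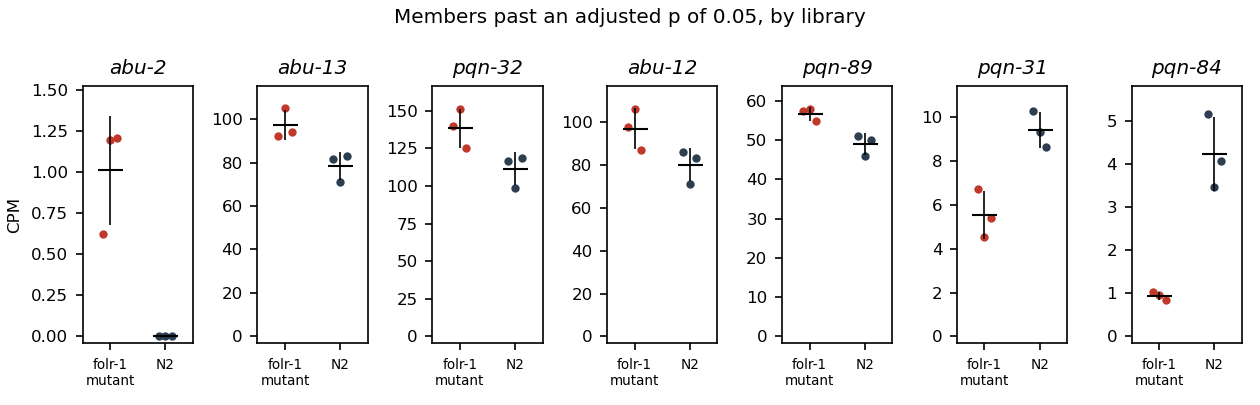
CPM (vertical axes, each from 0, with scales that differ between panels) of the 7 *abu* and *pqn* genes with an adjusted p under 0.05, in each *folr-1(syb4116)* (red, left) and N2 (dark, right) library, with the mean and SD of the 3 libraries in black. The strains overlap in none of the 7 genes, *abu-2* has counts only in the mutant libraries, and *pqn-84* has 0.836 to 1.02 CPM in the mutant against 3.46 to 5.17 CPM in N2.

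The third *abu* gene was read in the mutant and not in N2. The gene *abu-2* (F19G12.7), on chromosome X from 1408836 to 1410652, had 16, 29 and 26 counts in the mutant libraries, against 0, 0 and 0 counts in the N2 libraries. Every mutant library held the transcript at a low level, 0.625, 1.2 and 1.21 CPM, and the strains were separate. With a floor of 3 counts over the N2 libraries the gene was at least 23.1-fold higher in the mutant, a bound on counting error only, and the adjusted p was 1.37e-04 in edgeR. It passed the test in each of the 14 alternative fits that tested it. The gene passed the filter on low counts only through the mutant libraries. The adjusted p and these fits therefore restate the same counts and are no separate support for the difference. It was not tested where at least 10 counts in every library were required. On the opposite strand the annotation has 2 genes, F19G12.12 and F19G12.13, that overlap the exons of *abu-2* by 643 bp, and both had 0 counts in all libraries. The 4 nearest tested genes (ZK402.5, ZK402.3, F19G12.4 and F19G12.9) lie 5824 to 8560 bp away, had 10 to 33 counts in every library and did not pass the test. No other member had 0 counts in all libraries of a strain and more than 3 counts in a library of the other.

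The higher *pqn* genes were *pqn-32* and *pqn-89*. The gene *pqn-32* (F29C12.1), on chromosome II from 13108019 to 13110169, had 139.7, 151.4 and 124.9 CPM in the mutant libraries, against 116.8, 98.9 and 118.8 CPM in the N2 libraries. The strains did not overlap, and again mutant replicate 2 was the highest and N2 replicate 2 the lowest. The log2 fold change was 0.32 (SE 0.0682, adjusted p = 0.00847, edgeR), and the adjusted p was 0.0876 and 0.0877 with limma on log2(FPKM + 1) and log2(FPKM + 0.1). It lies within the span of *rict-1*, the Rictor subunit of TOR complex 2, on the opposite strand and shares no exon with it, and the log2 fold change of *rict-1* was -0.05 (adjusted p = 0.637, edgeR).

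The gene *pqn-89* (Y73B6BR.1), on chromosome IV from 6506724 to 6511113, had 57.4, 57.9 and 54.7 CPM in the mutant libraries and 51, 45.9 and 50 CPM in the N2 libraries. The strains did not overlap, and the mutant libraries lay close together. The log2 fold change was 0.21 (SE 0.0513, adjusted p = 0.0181, edgeR). As for *abu-12*, the call was lost without *folr-1(syb4116)* replicate 1 (log2 fold change 0.202, adjusted p = 0.064 in edgeR), *folr-1(syb4116)* replicate 2 (0.195, adjusted p = 0.0719) or N2 replicate 2 (0.167, adjusted p = 0.109).

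The lower *pqn* genes, *pqn-84* and *pqn-31*, were both at low levels. The gene *pqn-84* (Y41C4A.5), on chromosome III from 11700259 to 11702862, had 26, 23 and 18 counts in the mutant libraries, against 113, 77 and 103 counts in the N2 libraries. Each mutant library held far fewer counts than any N2 library. This was the largest fall among the members, to 0.935 ± 0.091 CPM in the mutant, against 4.23 ± 0.867 CPM in N2 (SD, n = 3 each), with a log2 fold change of -2.16 (SE 0.216, adjusted p = 5.80e-06, edgeR). With any single library removed it lay between -2.29 and -2. The 4 tested genes nearest to *pqn-84*, among them the cuticle collagens *col-95* and *col-96*, did not pass the test, with log2 fold changes from -0.25 to -0.0492.

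Libraries of whole L4 animals can also hold males. Over all tested genes 3.32% were lower in the mutant in edgeR. Of a list of 5 male-associated genes 3 were lower in the mutant in edgeR and DESeq2 and 1 in limma. The 3 were *lov-1* and *pkd-2*, the polycystins of male sensory neurons, and *mab-3*, a regulator of male development, with log2 fold changes of -3.47, -2.62 and -1.01. The others did not pass, with -1.22 for *cil-7* (adjusted p = 0.0653, edgeR) and -0.05 for *klp-6* (adjusted p = 0.96, edgeR). The list summed to 2.98 to 3.36 CPM in the mutant and 6.24 to 7.94 CPM in N2, and none of its 5 genes was at 0 in every library. The part of male RNA in the difference in *pqn-84* was not tested.

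The gene *pqn-31* (F21C10.8), on chromosome V from 9109581 to 9111013, had 172, 110 and 116 counts in the mutant libraries, against 225, 208 and 219 counts in the N2 libraries. The strains did not overlap, and mutant replicate 1 was nearest to N2. The log2 fold change was -0.76 (SE 0.136, adjusted p = 0.00197, edgeR), and with any single library removed it lay between -0.922 and -0.629. Of the 4 nearest tested genes, F21C10.9 was lower as well, with a log2 fold change of -0.86 (adjusted p = 5.61e-09, edgeR). F21C10.7 was also lower, with -0.24 (adjusted p = 0.0057, edgeR). The others did not pass, with -0.818 for *frpr-6* (adjusted p = 0.364, edgeR) and 0.0882 for F21C10.13 (adjusted p = 0.913, edgeR). No annotated exon of these genes overlaps *pqn-31*.

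The 5 *pqn* genes with the highest mean FPKM did not pass the test, and in *pqn-74* and *pqn-70* the mutant libraries lay above those of N2. The most abundant was *pqn-59* (R119.4), with 561, 561 and 541 CPM in the mutant libraries and 575, 572 and 547 CPM in the N2 libraries, which overlapped. Per length this was 239 ± 4.96 FPKM in the mutant and 243 ± 6.82 FPKM in N2 (SD, n = 3 each), with a log2 fold change of -0.03 (SE 0.0362). The next, *pqn-74* (W02A2.3), had 310, 306 and 298 CPM in the mutant libraries and 294, 287 and 277 CPM in the N2 libraries. These did not overlap, but the log2 fold change of 0.09 (SE 0.0378) did not pass the test (adjusted p = 0.18, edgeR). The genes *pqn-52*, *pqn-54* and *pqn-70* followed, with 136, 104 and 105 FPKM in the mutant and 135, 103 and 96.8 FPKM in N2. Of these, *pqn-70* (T19B10.4) had 96, 89.2 and 96.6 CPM in the mutant libraries and 88.4, 86.4 and 85.7 CPM in the N2 libraries. All its mutant libraries were the higher ones, at a log2 fold change of 0.11 (SE 0.043) that did not pass (adjusted p = 0.138, edgeR). The log2 fold changes of *pqn-52* and *pqn-54* were 0.01 (SE 0.0389) and 0.02 (SE 0.0492), with overlapping libraries.

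For the 56 tested members that did not pass, the standard error of the log2 fold change ran from 0.0349 to 0.334 with a median of 0.0615. Among the 26 of them with a mean of 20 FPKM or more, the log2 fold changes lay between -0.356 and 0.174. The lower end of that range was *pqn-94* (ZC15.8), with 9.38, 4.97 and 6.83 CPM in the mutant libraries and 8.96, 8.71 and 9.52 CPM in the N2 libraries. Mutant replicate 1 fell within the N2 values and the other mutant libraries lay below them, and the gene passed the test only without *folr-1(syb4116)* replicate 1. The highest fitted value short of the threshold was that of *pqn-90* (Y73F8A.8), with 37, 43 and 35 counts in the mutant libraries, against 19, 19 and 26 counts in the N2 libraries. The strains did not overlap, and the log2 fold change was 0.81 (SE 0.246, adjusted p = 0.0597, edgeR). At the other end, *pqn-75* (W03D2.1), which is expressed in the pharyngeal gland cells, had 55, 42 and 29 counts in the mutant libraries and 48, 52 and 84 counts in the N2 libraries. After scaling its mutant libraries lay below those of N2, at a log2 fold change of -0.58 (SE 0.228, adjusted p = 0.153, edgeR).

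Over all members, mutant and N2 libraries were fully separate in 12 genes in the higher and 11 in the lower direction, 36.5% of the 63 tested, where the background is 25.1%. By direction the background is 12.3% higher and 12.8% lower. All 4 of the *abu* genes among the separate members were higher. They include *abu-2*, which had no count in N2 and passed the filter on low counts only through the mutant libraries. The separate *pqn* genes divided into 8 higher and 11 lower, 15.7% and 21.6% of those tested. Many of these differences were small or in weakly expressed genes. An example is *pqn-41* (F53A3.4), with 83.3, 79.7 and 82.1 CPM in the mutant libraries and 89.1, 84.9 and 85.7 CPM in the N2 libraries. Each mutant library was just under the lowest N2 library, and the log2 fold change of -0.08 (SE 0.0416) did not pass (adjusted p = 0.277, edgeR). Within a strain the members varied little, with a median SD of 0.0835 on the log2 scale, beside 0.101 over all tested genes.

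Members that lie close together on a chromosome were read side by side. Where neighbours less than 50 kb apart are joined, 18 of the 70 members fall into 7 groups and 52 stand alone. On chromosome V, *abu-15*, *abu-6*, *abu-7* and *abu-8* lie within 36007 bp and each had 44.3 to 88.7 FPKM as the mean of either strain. Their log2 fold changes were 0.0406, 0.00768, -0.0328 and -0.0691, with standard errors of 0.0524 to 0.062, so none of the 4 differed from N2 by much more than its error. Genes of this family resemble each other in sequence, and how the counting treated reads that match more than 1 of them is not given in the sources used here, so the division of reads among them is uncertain. Also on chromosome V, *abu-1* and *pqn-2* stand head to head, 615 bp apart, with log2 fold changes of 0.0878 and 0.112, neither past the test. The pair *pqn-90* and *pqn-91* on chromosome IV, 644 bp apart, had 0.809 and 0.154, and *pqn-21* and *pqn-20* on chromosome I had 0.0644 and 0.0603.

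**Figure D4:**
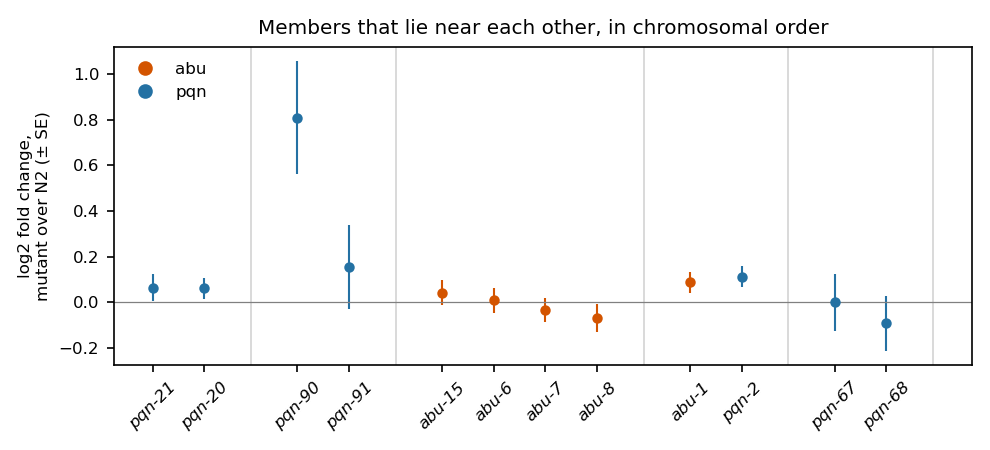
Log2 fold changes of *folr-1(syb4116)* over N2 with standard errors (vertical axis, edgeR) for the tested members that lie less than 50 kb from another member, in chromosomal order, with grey lines between the groups. The 4 *abu* genes of the group on chromosome V lie between -0.0691 and 0.0406, and *pqn-90* stands at 0.809.

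The 7 members that were not tested had almost no counts. On chromosome IV, *pqn-76*, *abu-5*, *pqn-78* and *pqn-79* lie within 17560 bp, and each has 1008 bp of exon. The highest counts of these 4 genes in any library were 1, 2, 2 and 0. On chromosome X, *abu-9* and *pqn-57* lie 1121 bp apart, and their highest counts were 6 and 7. The remaining gene, *pqn-16*, had 0 to 4 counts per library. At totals of 21646678 to 25946226 counts no difference in these genes was detectable.

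Gene structure was set beside the calls after the values had been seen. After merging overlapping exons, 9 of the 12 tested *abu* genes have 2 to 4 exon blocks, and *abu-10*, *abu-12* and *abu-13* have more. The 4 modestly higher genes have 13 (*abu-12*), 7 (*abu-13*), 5 (*pqn-32*) and 10 (*pqn-89*) blocks. Of the 41 tested members with 5 or more blocks 4 were higher and 1 was lower, and of the 22 with fewer 1 was higher and 1 was lower, where 3.64% of all tested genes were higher and 3.32% were lower. The limit of 5 blocks was chosen with these counts in view, *pqn-32* lies exactly on it, and nothing is read from the division. With more than 4 blocks but no call, *abu-10* (F35A5.3) had 61.5, 50.7 and 58.8 CPM in the mutant libraries and 58.8, 61.3 and 58.3 CPM in the N2 libraries. These overlapped, at a log2 fold change of -0.06 (SE 0.061).

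The other pharyngeal gene lists held no gene past the test in the higher direction. Over all tested genes 3.64% were higher and 3.32% were lower, a share that comes to few or no genes in lists this short. Of 34 other pharyngeal cuticle genes, made up of the chitin synthase gene *chs-2*, the protease gene *nas-6*, *pgp-14* and genes for intrinsically disordered cuticle proteins, 0 were higher and 1 was lower at an adjusted p under 0.05 in edgeR, and their median log2 fold change was -0.0244. At an unadjusted p under 0.05 in edgeR 0 of them were higher and 6 were lower. At that limit 1593 of all 15432 tested genes were higher and 1530 were lower. DESeq2 and limma also called 0 higher and 1 lower of the 34. The lower gene was *pgp-14*, an ABC transporter needed for the lipid barrier of the pharyngeal cuticle, with 87.3, 78 and 90.9 CPM in the mutant libraries and 104, 109 and 106 CPM in the N2 libraries. All its mutant libraries lay below N2, at a log2 fold change of -0.32 (adjusted p = 6.24e-04, edgeR). The pharyngeal muscle list had 0 higher and 2 lower genes of 5, the myosin heavy chains *myo-1* and *myo-2*, with log2 fold changes of -0.27 and -0.2. In the body wall muscle list 1 of 4 tested genes, *unc-54*, was lower as well, with -0.29, and the others did not pass. Of 7 tested pharyngeal gland genes and 4 transcription factors of the pharynx (*pha-4*, *ceh-22*, *tbx-2* and *peb-1*), 0 passed the test in either direction with edgeR, DESeq2 or limma, and at an unadjusted p under 0.05 in edgeR 0 were higher and 1 gland gene was lower. For the pharyngeal muscle list, DESeq2 and limma likewise called 0 higher and 2 lower, and 3 were lower at an unadjusted p under 0.05. All 5 pharyngeal muscle genes were read in the libraries, with sums of 623 to 675 CPM in the mutant and 741 to 755 CPM in N2, so the libraries held pharyngeal RNA.

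**Figure D5:**
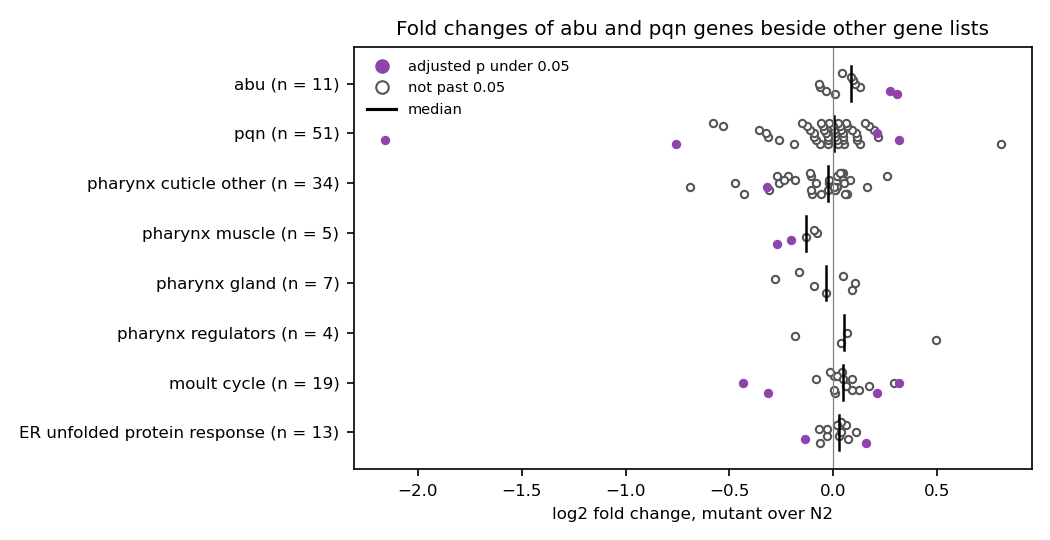
Log2 fold changes of *folr-1(syb4116)* over N2 (horizontal axis, edgeR) for the tested *abu* genes without *abu-2*, the *pqn* genes and 6 other gene lists, with 1 point per gene and a black line at each median. Filled points have an adjusted p under 0.05: none of the other pharyngeal cuticle genes is filled to the right of 0, and 2 of the 5 pharyngeal muscle genes are filled to the left.

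The moulting cycle sets the level of many cuticle genes, so its genes are given beside the members. Of 19 genes of the moult and its timing, 2 were higher, *mlt-10* and the Period homologue *lin-42*, and 2 were lower, the peroxidase gene *mlt-7* and the fibrillin-like *fbn-1*, with log2 fold changes of 0.32, 0.21, -0.31 and -0.44 in edgeR. Over all tested genes 3.64% were higher and 3.32% were lower in edgeR. DESeq2 also called 2 higher and 2 lower, and limma called 0 higher and 1 lower. At an unadjusted p under 0.05 in edgeR 4 were higher and 2 were lower, where 10.3% of all tested genes were higher. The naming of *fbn-1*, the last of the 4 by adjusted p, was chosen after its value was seen. The median over the 19 was 0.0483. The gene *mlt-10* had 203, 212 and 172 CPM in the mutant libraries, against 158, 137 and 175 CPM in the N2 libraries. The strains overlapped, since N2 replicate 3 exceeded mutant replicate 3. Mutant replicate 2 was the highest and N2 replicate 2 the lowest, as in *abu-12*, *abu-13* and *pqn-32*. The same highest and lowest libraries were found in *lin-42* and in moult genes that did not pass, *mlt-8*, *mlt-9* and *noah-1* among them. Others differed, such as *mlt-7*, and *mlt-11*, which shared only the lowest library. These genes were named after their values were seen. The pattern was not counted over the 19 genes or over all tested genes, and it was not tested. Among 123 tested collagen genes of the body cuticle, 17 were higher and 10 were lower in edgeR, 17 and 6 in DESeq2, and 12 and 2 in limma. Of all 15432 tested genes, 561 were higher and 512 were lower in edgeR, 475 and 418 in DESeq2, and 310 and 268 in limma. Adjusted p-values in edgeR were smallest for *col-131*, *col-172* and *col-38*, with log2 fold changes of 0.83, 0.77 and 0.3. The epidermal list had 1 higher gene of 5, the collagen *rol-6*, and summed to 394 to 427 CPM in the mutant and 309 to 366 CPM in N2. The part of the larval stage in the higher *abu* and *pqn* genes was not tested.

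The canonical unfolded protein response is the pathway whose block gave the *abu* genes their name. Of its 13 listed genes 1 was higher and 1 was lower in edgeR and DESeq2, the pair of BiP chaperone genes, and 11 did not pass, while limma called 1 higher and 0 lower. At an unadjusted p under 0.05, 2 were higher and 1 was lower in edgeR as in limma. Over all tested genes edgeR had 3.64% higher and 3.32% lower after adjustment, and 10.3% higher at the unadjusted limit. The gene *hsp-3* had 1754, 1831 and 1841 CPM in the mutant libraries and 1647, 1591 and 1626 CPM in the N2 libraries, while *hsp-4* had 717, 704 and 726 CPM in the mutant libraries and 812, 772 and 778 CPM in the N2 libraries. Mutant and N2 libraries were separate in both genes, and the log2 fold changes were 0.16 for *hsp-3* (adjusted p = 0.00776, edgeR) and -0.14 for *hsp-4* (adjusted p = 0.0239, edgeR). The receptors *ced-1* and *octr-1*, which have been described as acting on *abu* genes, had log2 fold changes of -0.08 (SE 0.0455) and 0.06 (SE 0.222) and did not pass the test with edgeR, DESeq2 or limma.

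Among the markers of other cells in whole larvae, 2 of 4 intestinal genes (*act-5* and *ifb-2*) were higher in edgeR and DESeq2 and 0 in limma, with 3 higher at an unadjusted p under 0.05 in edgeR. Over all tested genes edgeR had 3.64% higher after adjustment and 10.3% higher at the unadjusted limit. Of 30 tested major sperm protein genes 1 (*msp-79*) was lower in edgeR, DESeq2 and limma, and at an unadjusted p under 0.05 in edgeR 9 were lower and 0 were higher. Of all 15432 tested genes, 3.32% were lower after adjustment and 1530 genes were lower at the unadjusted limit. Of the other lists, 0 of 5 neuronal and 0 of 5 germline genes passed the test in edgeR, DESeq2 or limma, with 1 of each lower at an unadjusted p under 0.05 in edgeR. Their summed levels were 1911 to 2015 CPM in the mutant and 1748 to 1873 CPM in N2 for the intestine and 3807 to 3948 CPM in the mutant and 3954 to 4200 CPM in N2 for sperm. They were 195 to 203 CPM in the mutant and 194 to 206 CPM in N2 for neurons, and 1246 to 1288 CPM in the mutant and 1318 to 1348 CPM in N2 for the germline. Their part in the differences of *abu* and *pqn* genes was not tested.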

How the data were processed

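RNA from whole L4 larvae was sequenced by the authors as poly(A)-selected libraries. The submitters' processing notes name fastp, HISAT2, featureCounts and the WBcel235 build, and the authors deposited raw counts per gene. The authors also deposited FPKM values, which are the counts divided by gene length and by a scaled library size. Tool versions, the strand setting and the treatment of multi-mapped reads are not given in the sources used here. The protocol describes a directional and a non-directional kit without saying which was used, and reads of genes overlapping on opposite strands may therefore be mixed. Symbols and positions came from the WBcel235 annotation, which matched 46180 of 46661 genes and all 70 members.

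Counts were tested with edgeR 4.0.16 in R 4.3.3 (filterByExpr, TMM, glmQLFit and glmQLFTest, strain as the only term, Benjamini-Hochberg over all 15432 tested genes, threshold 0.05). The alternatives were RLE factors, DESeq2 1.42.0, no filter, at least 10 counts in every library, limma 3.58.1 on log2(FPKM + 1) and log2(FPKM + 0.1), a replicate block, a lowess (span 0.3) correction for gene length on its own or with the block, removal of each single library, and an adjusted p under 0.005 with an absolute log2 fold change over 1. The procedure was tried on simulated data with planted log2 fold changes of 1 in either direction. Planted changes as small as most of those called here were not tried.

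The members and lists were chosen with earlier results of these data known. The text names all members past the threshold, the 5 *abu* and 5 *pqn* genes with the highest mean FPKM, the largest and smallest fold change in each class, members at 0 in 1 strain, and at most 3 genes past the threshold per list, by adjusted p. Other genes, among them *fbn-1*, were named after their values were seen. A division of the members by cysteine content of their proteins was planned and replaced by the division by symbol, and protein sequences were not used here. Figures were drawn with matplotlib 3.10.9.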

Additional observations from a re-analysis of the deposited data

How the results depend on the processing

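All 7 calls among the *abu* and *pqn* genes held with RLE factors, with DESeq2 and with the length correction, without and with the replicate block. With no filter on low counts 8 members were higher, since *abu-14*, *pqn-13* and *pqn-63* were gained, and 4 *pqn* genes were higher. In that fit 894 of all 23348 tested genes were higher. With limma on log2(FPKM + 1), and on log2(FPKM + 0.1), 2 members and 0 *pqn* genes were higher. Of all 15432 tested genes, 310 and 309 were higher in these fits. On log2(FPKM + 1) 6 *pqn* genes were higher and 5 were lower at an unadjusted p under 0.05. The 3 calls lost with limma were *abu-12*, *pqn-32* and *pqn-89*. The stricter threshold left 1 higher and 1 lower member, which were 1 *abu* gene higher, 0 *pqn* genes higher and 1 *pqn* gene lower. With single libraries removed, 3 to 7 members were higher and 2 to 3 were lower, and 1 to 3 *pqn* genes were higher. Over all tested genes these fits had 335 to 529 higher and 337 to 470 lower. Their median log2 fold change ran from -0.00954 to 0.0213 over the members and from -0.0165 to 0.0118 over the *pqn* genes. The median over the members was below 0 without N2 replicate 3, and that over the *pqn* genes without *folr-1(syb4116)* replicate 2 (-0.00919), N2 replicate 2 or N2 replicate 3 (-0.0149). The direction of 3 genes near 0 turned: *abu-8* ran from -0.125 to 0.016 and was above 0 without *folr-1(syb4116)* replicate 2, *pqn-52* ran from -0.0212 to 0.0285 and was below 0 without *folr-1(syb4116)* replicate 3 or N2 replicate 3 (-0.00916), and *pqn-54* ran from -0.0149 to 0.0797 and was below 0 without N2 replicate 3 or *folr-1(syb4116)* replicate 1 (-0.00916). The causes were not tested.

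Replicate numbers did not pair the samples: the correlations of the deviations of same-numbered libraries were -0.0314, -0.0712 and 0.014, and 0 of 3 mutant libraries correlated best with their own number. With a replicate block, 6 of the 7 member calls remained and *abu-12* had an adjusted p of 0.0535 in edgeR, while 865 genes of all tested passed, against 1073 without the block. The planned divisions by cysteine content were not run. Members with few counts, such as *pqn-10* with 9 to 21 counts per library, had standard errors of up to 0.334, so that small changes in them were not detectable at this depth.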
